A study of Pleurotus tuoliensis with 9 samples.

Results

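The unigenes gene_8809, gene_4773 and gene_8226 are annotated as enzymes of histidine synthesis in the king oyster relative *Pleurotus tuoliensis*. They are ATP phosphoribosyltransferase, imidazole glycerol phosphate synthase and histidinol-phosphate aminotransferase. These 3 of the 13953 unigenes in the deposited count table were taken by ID. They were chosen by their rise with temperature in these same libraries, so levels and fold changes of the 3 are described here without a test. All 3 were counted in each of the 9 libraries and were among the 13018 unigenes that entered the fit. The deposited descriptions name the enzyme for gene_8809 and gene_4773, from matches in *Pleurotus eryngii*. For gene_8226 the deposited description is only a hypothetical protein of *Pleurotus ostreatus*, and its enzyme name is the one the study gives. Unigenes have no coordinates here, and no sequence was used.

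The mycelia were of 1 strain, Zhongnong No.1, grown on potato dextrose agar without light at 25 °C for 9 days. Plates then stayed at 25 °C (CK) or were placed at 32 °C (MHT) or 36 °C (SHT), and all were harvested on day 13, after 96 h of treatment. Each group had 3 libraries, from separate plates that were all inoculated from 1 starting plate. The libraries held 3925786 to 6180053 counts. In RNA from a whole colony, a change in RNA per cell cannot be told apart from a change in the number of cells that express a gene.

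Of 25 unigenes described as chitin synthase, tubulin, septin or hydrophobin, which build and coat growing hyphae, 23 were counted in every library. In SHT&CK 1 of these 23 rose and 5 fell, with a median log2 fold change (log2FC) of -0.48, so that 26.1% were called, against 21.7% of all unigenes. In MHT&CK 2 rose and 2 fell (17.4% called, against 8.17% of all), with a median of -0.025. Several of the 23 name the same protein as an ID neighbour, so the counts are of unigenes and not of separate proteins. The 2 that rose in MHT&CK, gene_15050 and gene_15051, are such neighbours. Unigene gene_19698, the mitochondrial chaperonin GroL that refolds proteins in the heat, averaged 792 ± 163 CPM at 25 °C, 1526 ± 349 at 32 °C and 2821 ± 664 at 36 °C (SD, n = 3), where CPM are counts scaled to a common library size by TMM. This chaperonin rose, with a log2FC of 1.83 in SHT&CK (SE 0.267, edgeR QL adjusted p = 3.78e-04, the quasi-likelihood test with Benjamini-Hochberg adjustment). The study lists it among its heat-responsive genes from these libraries, so the call is not independent evidence. The part of these changes in the results for histidine enzymes was not tested.

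Histidine is built on phosphoribosyl pyrophosphate (PRPP), with a nitrogen and a carbon taken from the adenine ring of ATP. ATP phosphoribosyltransferase opens the pathway and in yeast (*Saccharomyces cerevisiae*) is inhibited by histidine, the end product. Imidazole glycerol phosphate synthase closes the imidazole ring with nitrogen from glutamine and releases AICAR, an intermediate of purine synthesis. Histidinol-phosphate aminotransferase then adds an amino group from glutamate, a phosphatase removes the phosphate, and histidinol dehydrogenase, in fungi usually part of a trifunctional protein that also acts early in the pathway, finishes histidine. In yeast these genes belong to the general amino acid control, in which the kinase Gcn2 and the transcription factor Gcn4 raise amino acid synthesis on starvation.

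All 3 unigenes were lowest in CK, intermediate in MHT and highest in SHT. Unigene gene_8809, the enzyme of the first step, had 36.3, 47.7 and 32.3 CPM in the CK libraries, 52.3, 56.8 and 86.0 in MHT and 94.3, 102 and 133 in SHT. These rest on 124 to 717 counts per library, so that counting error alone is 8.98% at the lowest count and 3.73% at the highest. The groups did not overlap, but the gaps were narrow: the lowest MHT library was 1.10 times the highest CK library, and the lowest SHT library 1.10 times the highest MHT library. The lowest SHT library was 1.98 times the highest CK library. CPM averaged 38.8 ± 7.96 at 25 °C, 65.0 ± 18.3 at 32 °C and 109.8 ± 20.3 at 36 °C (SD, n = 3). The log2FC was 0.74 in MHT&CK (SE 0.236), 1.499 in SHT&CK (SE 0.238) and 0.76 in SHT&MHT (SE 0.231). On the log2 scale 49.6% of the rise between CK and SHT was thus present in MHT, and 32.7% without MHT replicate 3.

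Unigene gene_4773, the ring-closing enzyme, showed the largest difference of the 3 between heat and control. It had 58.0, 83.9 and 69.2 CPM in the CK libraries, 149, 159 and 239 in MHT and 248, 247 and 351 in SHT, from 198 to 1897 counts. The MHT libraries lay well above CK, the lowest at 1.78 times the highest CK library, while the lowest SHT library was only 1.03 times the highest MHT library. The lowest SHT library was 2.95 times the highest CK library. CPM averaged 70.4 ± 13.0 at 25 °C, 182 ± 49.4 at 32 °C and 282 ± 59.7 at 36 °C (SD, n = 3). Its log2FC was 1.37 in MHT&CK (SE 0.235), 2.0 in SHT&CK (SE 0.239) and 0.63 in SHT&MHT (SE 0.229). Of its log2 rise between CK and SHT, 68.5% was present at 32 °C, and 56.3% without MHT replicate 3.

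Unigene gene_8226, the aminotransferase, had 101, 86.0 and 84.1 CPM in the CK libraries, 115, 130.4 and 164 in MHT and 221, 244 and 265 in SHT, from 346 to 1442 counts. Here the wider gap was between the heat treatments. The lowest SHT library was 1.35 times the highest MHT library, and the lowest MHT library was 1.14 times the highest CK library. SHT stood further off CK, at 2.18 times from its lowest to the highest CK library. CPM averaged 90.5 ± 9.47 at 25 °C, 137 ± 25.0 at 32 °C and 243 ± 21.9 at 36 °C (SD, n = 3). The log2FC was 0.60 in MHT&CK (SE 0.180), 1.43 in SHT&CK (SE 0.182) and 0.83 in SHT&MHT (SE 0.179). Only 41.7% of the log2 rise was present at 32 °C (31.0% without MHT replicate 3), the lowest share of the 3.

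**Figure D1:**
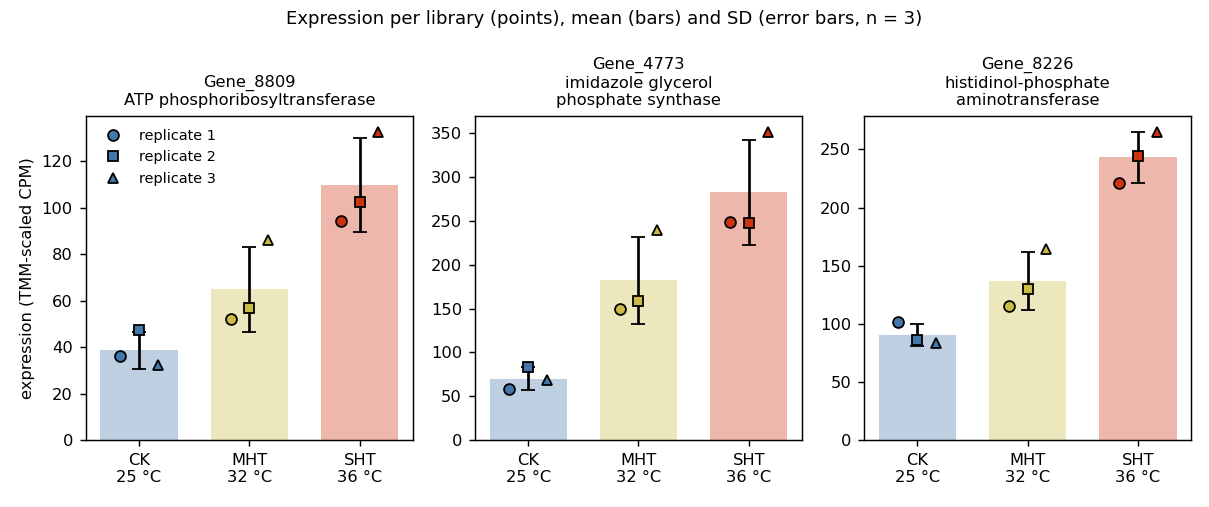
TMM-scaled CPM (y axis, linear, from 0) of gene_8809, gene_4773 and gene_8226 in CK, MHT and SHT (x axis), with the 3 libraries of each group as points, the mean as a bar and the SD as an error bar. In each panel the CK, MHT and SHT points occupy 3 separate ranges, with means of 38.8, 65.0 and 109.8 CPM for gene_8809, and replicate 3 is the highest point in MHT and in SHT.

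DEGs had a log2FC above 1 or below -1 together with an adjusted p under 0.05, and all 13018 unigenes were fitted together. In SHT&CK 3 of the 3 met these thresholds as higher, against 10.8% of all unigenes tested. In MHT&CK gene_4773 was the 1 that did so, against 3.85%. In SHT&MHT the log2FC of each of the 3 was under 1, so the thresholds were not met, and 2.79% of all unigenes were called higher. Without MHT replicate 3, gene_8809 had a log2FC of 1.01 in SHT&MHT and met them. In that setting 1428 of all unigenes were called in either direction, against 736 with all libraries. In SHT&CK the log2FC of gene_8809 was larger than that of 95.4% of the unigenes tested, that of gene_4773 larger than 98.1% and that of gene_8226 larger than 94.6%. Of all unigenes, 18.4% had every MHT library above every CK library, 27.6% every SHT library above every CK library and 15.4% every SHT library above every MHT library. Rising ranges without overlap over CK, MHT and SHT, seen for each of the 3, occurred in 3.05%. The choice of the 3 used these values, so their calls are a description and not tests. Nothing is read from their share.

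The sizes of the rise, described here without a test, were unequal. Set against its own CK mean on the log2 scale, gene_4773 was above gene_8809 in every heated library, by 0.41 to 0.65, and within the CK libraries the same difference (gene_8809 minus gene_4773) ran between -0.23 and 0.19. Unigene gene_8809 minus gene_4773 averaged -0.63 ± 0.0183 in MHT and -0.50 ± 0.0726 in SHT (SD, n = 3). Against gene_8226, gene_4773 was higher by 0.77 ± 0.132 in MHT and 0.57 ± 0.196 in SHT. The lowest of these 6 values was 0.39, just above the highest CK library at 0.34. The levels of gene_8809 and gene_8226 stayed together, with a difference of 0.14 ± 0.138 in MHT and 0.07 ± 0.142 in SHT, both inside the range of the CK libraries (-0.24 to 0.38).

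**Figure D2:**
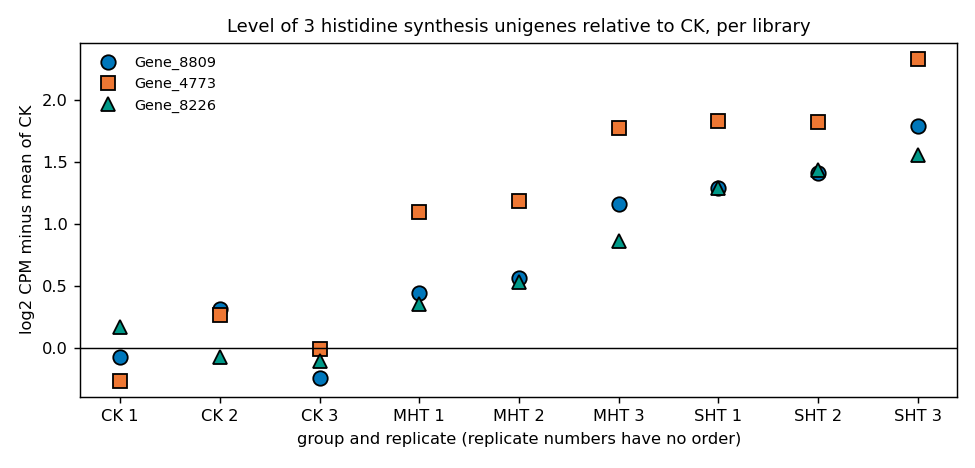
Log2 CPM minus the mean of the CK libraries (y axis) of gene_8809, gene_4773 and gene_8226 in each of the 9 libraries (x axis). Unigene gene_4773 is the highest of the 3 in all MHT and SHT libraries, and gene_8809 and gene_8226 lie close together there.

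The 3 unigenes also varied together between the libraries of a heated group. In MHT and in SHT, replicate 3 was the highest library for all 3. In MHT it lay 0.44 above the group mean of log2 CPM for gene_8809, 0.42 for gene_4773 and 0.28 for gene_8226, and in SHT 0.29, 0.34 and 0.13. Over all unigenes tested, MHT replicate 3 was the highest MHT library in 43.2% and SHT replicate 3 the highest SHT library in 32.0%. MHT replicate 3 was also the library farthest from its own group over the whole transcriptome (mean distance 73.4 on the log2 CPM scale, against 59.5 and 57.3 for MHT replicates 1 and 2), and its part in the levels of these genes in MHT was not tested. In CK there was no such order, with gene_8809 and gene_4773 highest in replicate 2 and gene_8226 in replicate 1. Across the 9 libraries Pearson's r of log2 CPM was 0.964 for gene_8809 and gene_4773, 0.958 for gene_8809 and gene_8226 and 0.921 for gene_4773 and gene_8226, values that include the differences between the groups and are given as a description. The biological coefficient of variation was 0.213 for gene_8809, 0.216 for gene_4773 and 0.177 for gene_8226, above that of 59.8%, 61.7% and 25.4% of all unigenes.

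A further pair of unigenes was described as enzymes of histidine synthesis. Unigene gene_14686, the histidinol-phosphate phosphatase, acts directly after the aminotransferase. It had 4.69, 6.99 and 8.52 CPM in the CK libraries, 6.93, 11.2 and 16.7 in MHT and 13.5, 15.9 and 18.3 in SHT, from only 16 to 99 counts. SHT lay above CK in every library, and MHT overlapped both. It rose in SHT&CK with a log2FC of 1.22 (SE 0.328, edgeR QL adjusted p = 0.0116). The study lists this gene among its heat-responsive genes from these libraries, so the call is not independent evidence of the direction. In MHT&CK its log2FC was 0.76 (adjusted p = 0.144) and in SHT&MHT 0.46 (adjusted p = 0.335). Without MHT replicate 3 these were 0.40 and 0.81, and without MHT replicate 1 they were 1.03 and 0.19, not called in any of these cases.

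Unigene gene_1359, the trifunctional histidinol dehydrogenase, had the smallest log2FC of the 5 enzymes found here in SHT&CK and in MHT&CK. It had 40.1, 37.5 and 27.3 CPM in the CK libraries, 35.6, 36.3 and 41.8 in MHT and 70.4, 47.0 and 71.8 in SHT. SHT replicate 2 stood near the CK and MHT libraries, and CK and MHT overlapped. Its log2FC was 0.85 in SHT&CK (SE 0.215, edgeR QL adjusted p = 0.00834), under the fold threshold, and 1.02 without SHT replicate 2, where it passed. In MHT&CK it was 0.12 (adjusted p = 0.753) and in SHT&MHT 0.74 (adjusted p = 0.0476). Whether it differs from the 3 enzymes above in its response was not tested.

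Of these 2 other unigenes, 1 was thus called in SHT&CK, where 21.7% of all unigenes were called in either direction, and the median log2FC of the 2 was 1.04, against 0.01 over all unigenes. In MHT&CK neither was called by edgeR or DESeq2, with 1 at an unadjusted p under 0.05 in edgeR, and in SHT&MHT neither was called by either tool, again with 1 at an unadjusted p under 0.05. The isomerase and the dehydratase of the pathway, PRPP synthetase, and enzymes of histidine breakdown or ergothioneine synthesis were not matched by any description and are not analysed here. Since 10742 of the 13953 descriptions name no known protein, some may stand among those unigenes.

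**Figure D3:**
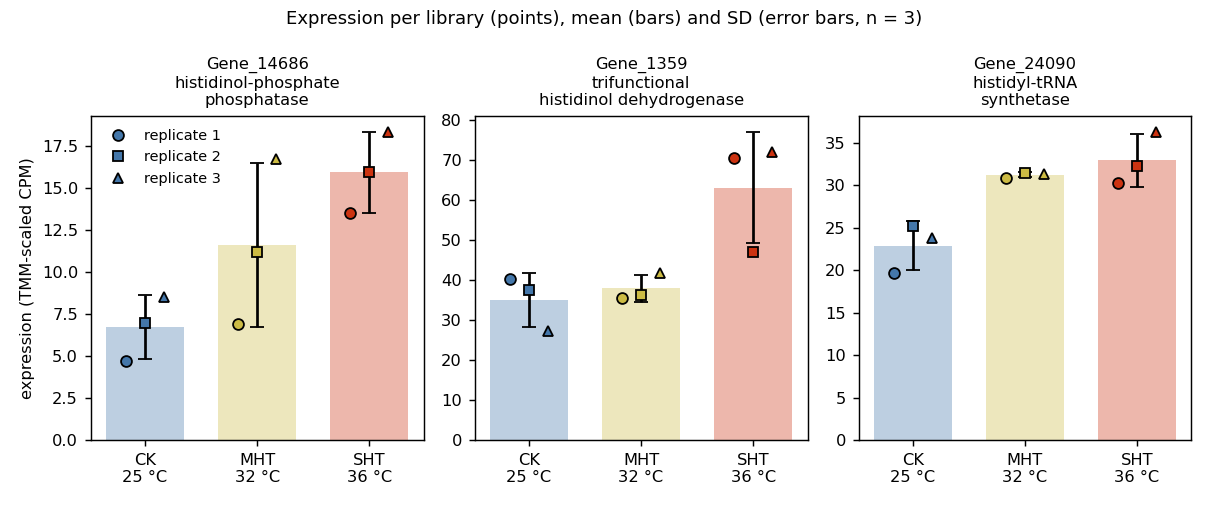
TMM-scaled CPM (y axis, linear, from 0) of gene_14686, gene_1359 and gene_24090 in CK, MHT and SHT (x axis), with libraries as points, means as bars and SDs as error bars. Unigene gene_14686 has 13.5 to 18.3 CPM in SHT, above all CK libraries, gene_1359 is spread in SHT with replicate 2 at 47.0 CPM, and gene_24090 has nearly the same level in MHT and SHT.

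Histidine is also used in translation. Unigene gene_24090, the histidyl-tRNA synthetase that charges tRNA with histidine, had 19.6, 25.2 and 23.8 CPM in the CK libraries, 30.9, 31.4 and 31.3 in MHT and 30.2, 32.2 and 36.3 in SHT. Both heat groups lay above CK and overlapped each other. Its log2FC was 0.52 in SHT&CK (SE 0.177, edgeR QL adjusted p = 0.0344), under the fold threshold, 0.44 in MHT&CK (adjusted p = 0.111) and 0.08 in SHT&MHT (adjusted p = 0.796).

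**Figure D4:**
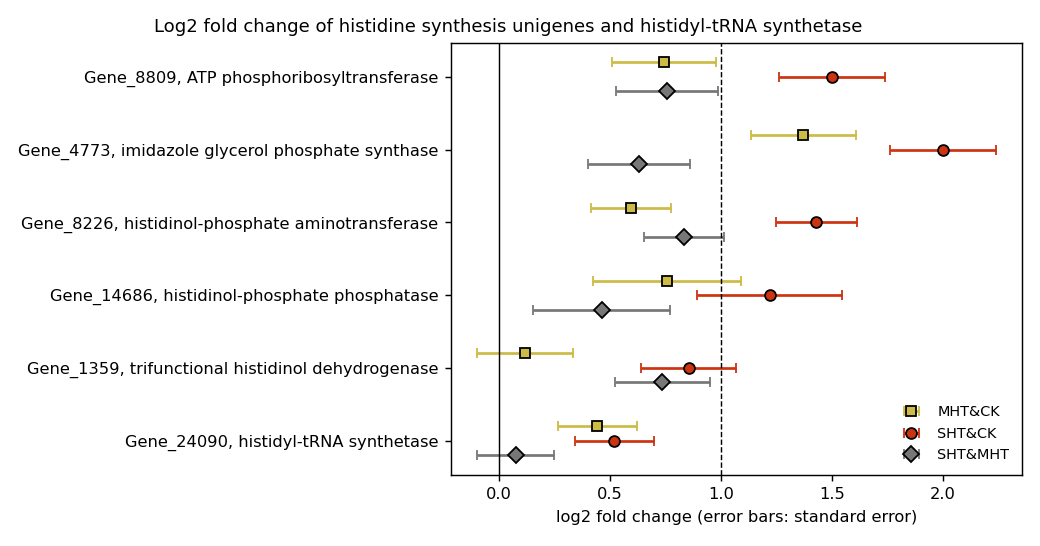
Log2FC (x axis, with its standard error as error bar) in the 3 comparisons for 5 unigenes of histidine synthesis and for histidyl-tRNA synthetase (y axis). The dashed line marks the threshold of 1, and in SHT&CK the values run between 0.52 for gene_24090 and 2.0 for gene_4773.

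Among regulators, gene_14036 and gene_14040 were described as a translational activator of GCN4, the protein that in yeast (Gcn1) helps to switch on Gcn2. Unigene gene_14040 had 19.9, 22.9 and 25.3 CPM in the CK libraries, 12.4, 14.4 and 5.83 in MHT and 11.8, 4.36 and 9.44 in SHT. It fell in SHT&CK with a log2FC of -1.40 (SE 0.362, edgeR QL adjusted p = 0.00942), and had -1.06 in MHT&CK (adjusted p = 0.0643). DESeq2 called it in MHT&CK, as did edgeR QL without SHT replicate 2 (log2FC -1.06, adjusted p = 0.0309) and with only the compared groups fitted (log2FC -1.04, adjusted p = 0.0444). Unigene gene_14036 averaged 88.1 ± 13.8 CPM at 25 °C, 71.1 ± 5.24 at 32 °C and 77.7 ± 9.32 at 36 °C (SD, n = 3), with a log2FC of -0.18 in SHT&CK (adjusted p = 0.422) and of 0.08 there with no scaling factors. The 2 share a description, and whether they come from a single gene was not tested.

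Purine synthesis meets the pathway at ATP and at AICAR. Of 8 unigenes of purine synthesis, 2 rose and 6 did not pass in SHT&CK, with a median log2FC of 0.71. That is 25.0% called, near the 21.7% of all unigenes. Both that rose are described as inosine-5'-monophosphate dehydrogenase, which leads to guanine nucleotides, and have adjacent ID numbers. Unigene gene_9015 averaged 605 ± 8.65 CPM at 25 °C, 986 ± 185 at 32 °C and 1469.8 ± 217 at 36 °C (SD, n = 3), a log2FC of 1.28 in SHT&CK (SE 0.211, edgeR QL adjusted p = 7.86e-04). Unigene gene_9016 had a log2FC of 1.05, lowered to 0.9987 without CK replicate 3 and to 0.90 without SHT replicate 1, not passing in either case. Unigene gene_15458, described as ade10, the enzyme that in fission yeast converts AICAR onward, was chosen after its values were seen. It had a log2FC of -0.17 in SHT&CK (edgeR QL adjusted p = 0.533). In MHT&CK and in SHT&MHT no purine unigene was called by edgeR or DESeq2, with 5 and 4 at an unadjusted p under 0.05 in edgeR. In MHT&CK gene_9015 (log2FC 0.71, edgeR QL adjusted p = 0.0391) and gene_9016 (0.64, adjusted p = 0.0330) passed the adjusted p and missed the fold threshold.

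In other amino acid pathways more of the matched unigenes had a positive than a negative log2FC. The lists were matched by words in the deposited descriptions. They leave out unigenes that the study names among its rising enzymes of lysine, branched-chain amino acid and glutamate synthesis. The counts thus cover only a part of each pathway. The patterns also took in gene_3502, a folylpolyglutamate synthase, and gene_1924, a pyrroline-5-carboxylate dehydrogenase of proline breakdown. Several unigenes share a description with an ID neighbour, so the counts are of unigenes and not of enzymes. Of the 52 tested in 6 lists, 11 rose and 1 fell in SHT&CK, 23.1% called against 21.7% of all unigenes. Their median log2FC of 0.55 lay above the 0.01 of all unigenes, and 43 of the 52 values were positive. In MHT&CK 2 rose and 1 fell, 5.77% against 8.17% of all unigenes (median 0.18), and in SHT&MHT 4 rose, 7.69% against 5.65% (median 0.38). The 3 histidine enzymes, at 1.43 to 2.0 in SHT&CK, lay in the upper part of the range of these 52, which was -1.01 to 2.22. As the 3 were chosen for their rise, no difference between the pathways is read from this.

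In arginine synthesis 3 of 11 rose in SHT&CK, led by gene_17070, an ornithine carbamoyltransferase, with a log2FC of 2.22 from only 11 to 20 counts in the CK libraries. Both gene_17153 (1.15) and gene_17076 (1.11), described alike, rose but were below the fold threshold in 1 case each, without CK replicate 1 (0.9964) for gene_17153 and without SHT replicate 3 (0.97) for gene_17076. In branched-chain synthesis 3 of 10 rose. They were gene_24786 (1.83) and gene_24785 (1.48), both 2-isopropylmalate synthase of the leucine branch, and gene_1561 (1.48), a 3-isopropylmalate dehydrogenase whose call was lost without CK replicate 1 (1.19), CK replicate 3 (1.49) or SHT replicate 3 (1.07). In lysine synthesis gene_915, a homoisocitrate dehydrogenase, rose (1.76) and the 5 others matched by description did not pass.

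In the list of aspartate, serine and sulfur amino acids 2 of 9 rose. They were gene_21802, an aspartokinase (1.55), and gene_14199 (2.03), a ketopantoate hydroxymethyltransferase of pantothenate synthesis that the word pattern took in. Glutamate, the amino donor of the aminotransferase, and glutamine, the nitrogen donor of the ring closure, share a list with proline and asparagine, in which 2 of 11 rose. Unigene gene_1924, a pyrroline-5-carboxylate dehydrogenase, had 1.18, and gene_4597, an aspartate transaminase, 1.08, not passing without CK replicate 1 (0.91), CK replicate 3 (0.86) or SHT replicate 3 (0.91), nor with neighbouring unigenes summed (0.74). In aromatic synthesis gene_6218, a shikimate dehydrogenase, fell (-1.01) and was under the fold threshold without CK replicate 1 (-0.99), CK replicate 2 (-0.97) or SHT replicate 2 (-0.80), and with no scaling factors (-0.74). Of 34 unigenes described as aminoacyl-tRNA synthetases, 7 rose in SHT&CK (median 0.72), 20.6% called against 21.7% of all unigenes. Several of the 34 name the same enzyme as an ID neighbour, so they are not 34 separate enzymes. Among the 7 that rose were gene_4599 and gene_4600, both for aspartate and with adjacent ID numbers, at 1.65 and 1.54. Others were gene_16058 for lysine at 1.43, and gene_14516 for tyrosine at 1.17, which was 0.98 without SHT replicate 3. The study lists gene_915, gene_4597, gene_4599, gene_4600 and gene_16058 among its heat-responsive genes from these libraries. Their calls are thus not independent evidence of direction.

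**Figure D5:**
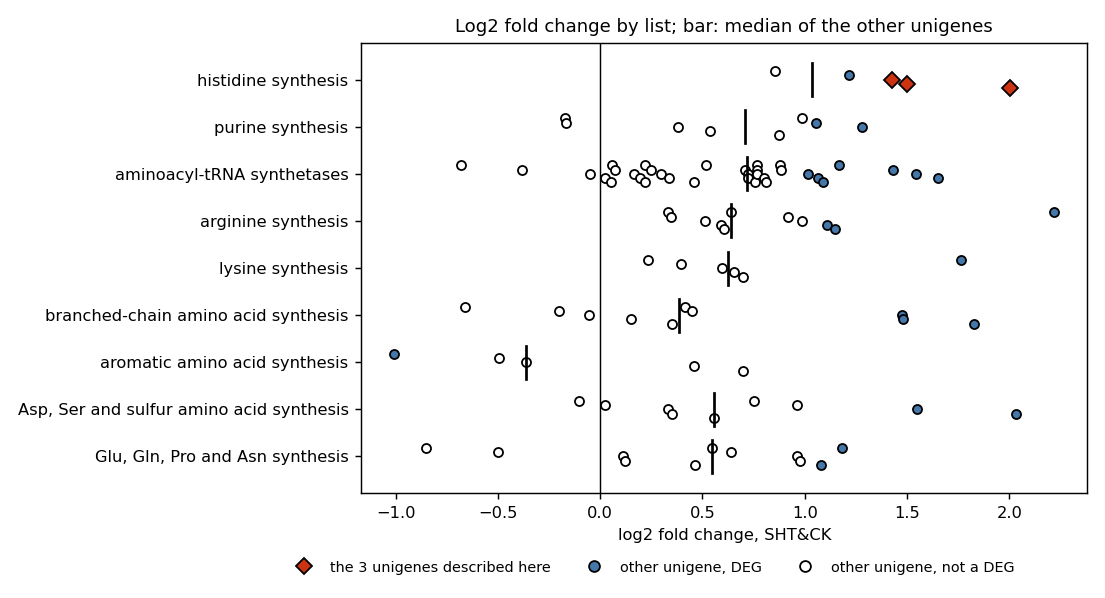
Log2FC in SHT&CK (x axis) of each unigene in 9 lists (y axis), with the 3 histidine enzymes as red diamonds, other DEGs as blue circles, unigenes that are not DEGs as open circles and the median of the others in each list as a vertical bar. The 3 diamonds lie at 1.43, 1.499 and 2.0, and medians run between -0.36 for aromatic and 1.04 for histidine synthesis.

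Unigenes with the next ID numbers, up to 2 on either side, showed no common direction with the histidine enzymes. Of 10 such unigenes, 9 were tested, and in SHT&CK 3 rose, 1 fell and 5 did not pass. The 4 called are 44.4% of the 9, against 21.7% of all unigenes. Next to gene_4773, gene_4772 rose with a log2FC of 1.20 (edgeR QL adjusted p = 0.0229) and gene_4771 with 1.21 (adjusted p = 0.0160), both matched to 1 uncharacterized protein, and both calls were lost without CK replicate 1 (0.9980 and 0.9995), CK replicate 3 (1.05 and 1.09) or SHT replicate 3 (0.82 and 0.84). On its other side gene_4774 had -0.61 and gene_4775 -0.88. Next to gene_8226, gene_8225 fell (-1.20, adjusted p = 0.00206), gene_8227 had 0.07, and gene_8228 rose (1.21, adjusted p = 0.00192). Next to gene_8809, gene_8810 had -0.26 and gene_8811 -0.96, with an adjusted p of 0.462 and 0.0782. Unigene gene_8811 passed without CK replicate 3 (-1.25). All 10 neighbours are described only as hypothetical or uncharacterized proteins, so whether any is a fragment of the 3 genes was not tested.

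The named unigenes whose levels most resembled those of the 3 were found among 2548 (2549 for gene_8226) with an informative description and a mean of at least 50 counts, by Pearson's r of log2 CPM over the 9 libraries. For gene_8809 they were gene_4600, an aspartyl-tRNA synthetase (r = 0.995), gene_8355, an orotate phosphoribosyltransferase that uses PRPP for pyrimidines (r = 0.990), and gene_17118, the 10 kDa heat shock protein of the mitochondrial chaperonin (r = 0.987). For gene_4773 they were gene_4599, also an aspartyl-tRNA synthetase (r = 0.993), gene_2971, a UbiE/COQ5 methyltransferase (r = 0.993), and gene_17304, an RNA ligase (r = 0.989). For gene_8226 they were gene_15258, the replication protein Psf1 (r = 0.990), gene_17303, also described as RNA ligase (r = 0.984), and gene_19916, a subunit of the nuclear cap binding complex (r = 0.979). These values share the 9 libraries and their 3 groups, and the unigene at rank 100 still had an r of 0.939, 0.945 and 0.914 to gene_8809, gene_4773 and gene_8226. Unigenes gene_4599 and gene_4600 have adjacent ID numbers and name the same enzyme, as do gene_17303 and gene_17304. Whether each pair comes from a single gene was not tested.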

How the data were processed

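RNA-seq counts of 9 libraries (CK, MHT and SHT, n = 3) were used. The authors filtered reads with fastp (at least 75 bp), removed rRNA with Bowtie2, aligned to the genome of another *P. tuoliensis* strain with HISAT2, assembled transcripts with StringTie and annotated unigenes by BLASTX. The versions of these tools and whether counting used strand: not given in the sources used here. Per the file headers and values, the authors deposited raw counts per unigene. Unigenes with a zero count in any library (935 of 13953) were left out, a filter the study also used. The study reports dropping unigenes without an annotation as well, so its set was smaller and its DEG counts rest on another basis. Here 13018 were tested with edgeR 4.0.16 (R 4.3.3): TMM scaling, robust quasi-likelihood (QL) test, 1 model over 9 libraries, Benjamini-Hochberg adjustment over all. Standard errors are the log2 fold change over the root of F. Log2 CPM had a prior count of 2.

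The 3 unigenes, the word-pattern lists and the tests were chosen with earlier results of these data known. Named besides them were all unigenes matched to histidine synthesis, histidyl-tRNA synthetase and the GCN4 activator, per other list at most 4 DEGs of SHT&CK with the largest change, ID neighbours, and the 3 most alike. Alternatives were DESeq2 1.42.0 (the tool of the study), other scalings, filters and thresholds, a fit of only the compared groups, the replicate number as a block, summed neighbours, a prior count of 0.5 and each library left out.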

Additional observations from a re-analysis of the deposited data

How the results depend on the processing

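The log2 fold changes of gene_8809, gene_4773 and gene_8226 kept their direction in all 18 alternatives tried for each comparison. In SHT&CK they ran between 1.33 and 1.76, 1.80 and 2.26, and 1.35 and 1.70, lowest without SHT replicate 3 and highest with no scaling factors, a setting that moves the median of all unigenes to 0.14 (MHT&CK), 0.28 (SHT&CK) and 0.13 (SHT&MHT), and the share of DEGs that are higher to 64.0%, 72.9% and 67.5%, against 47.1%, 49.9% and 49.3%. In MHT&CK they were lowest without MHT replicate 3, at 0.49, 1.13 and 0.44. With no scaling factors gene_1359 also passed in SHT&CK, so that 2 of the 2 other histidine unigenes were called, as they were with no fold threshold, and 0 were called at an adjusted p under 0.01. Leaving out 1 library gave 1 to 2 of them, with 2 without SHT replicate 2. With no fold threshold, 2 of the 3 enzymes were called in MHT&CK and 1 in SHT&MHT. Of the other histidine unigenes, 1 was called in SHT&MHT. That setting called 1940 of all 13018 unigenes in MHT&CK, 5225 in SHT&CK and 1269 in SHT&MHT, in either direction. Leaving out 1 library gave 0 to 1 of the 3 in SHT&MHT, with 1 without MHT replicate 3, where 1428 of all unigenes were called.

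DEGs numbered 1063 in MHT&CK (631 at an adjusted p under 0.01, 1940 with no fold threshold), 2821 in SHT&CK (5225 with no fold threshold) and 736 in SHT&MHT (285 and 1269), and 278 (without SHT replicate 3) to 1428 (without MHT replicate 3) in SHT&MHT with 1 library left out. Directions that turned were all of uncalled values: gene_14036 (0.0791) and gene_8810 (0.0077) in SHT&CK with no scaling factors, and, with 1 library left out, gene_8810 (-0.4686 to 0.0122) and gene_8227 (-0.1134 to 0.2714) in SHT&CK, gene_1359 (-0.0344 to 0.2496) in MHT&CK and gene_24090 (-0.0061 to 0.1252) in SHT&MHT. The cause was not tested.

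Replicate numbers are shared by the groups. The deviations of same-numbered libraries correlated between -0.227 and 0.442, over 0.1 in 1 of 9 pairs, replicate 1 of SHT and MHT. Deviations from a mean of 3 libraries are not independent of one another, and whether same-numbered libraries shared a batch was not tested. With the replicate number as a block there were 990, 2767 and 641 DEGs for MHT&CK, SHT&CK and then SHT&MHT. The 3 enzymes then had 3, 1 and 0 calls in SHT&CK, MHT&CK and SHT&MHT, given as a description.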
